A study of Caenorhabditis elegans with 33 samples.

Results

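The 10 genes described here are the fatty acid elongase genes *elo-1*, *elo-2*, *elo-5* and *elo-6* and the fatty acid desaturase genes *fat-1*, *fat-2*, *fat-3*, *fat-5*, *fat-6* and *fat-7* of *Caenorhabditis elegans*. They were chosen by symbol, and all 10 were found among the 46778 gene identifiers of the count tables. RNA-seq was made from whole worms of the wild-type N2 strain, labelled both as young adults and as L4 larvae. Cultures were kept at 19 °C on *E. coli* OP50. Irradiated worms were kept under gamma rays at a dose rate of 50 mGy per h, starting as synchronised embryos, and were taken after 65 h. Exposed worms were irradiated in every generation, F0, F1, F2 and F3. Recovery worms came from ancestors irradiated in F0 alone and were themselves unirradiated in F1, F2 and F3. Control worms were unirradiated in F0, F1, F2 and F3. The 11 groups held 3 libraries each, 33 in all, called biological replicates, and nothing says whether these came from separate irradiations or cultures. The p-values therefore measure only the spread between these libraries.

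Elongases lengthen a fatty acid by adding carbon units to its acyl-CoA, and desaturases put double bonds into the chain. Together they turn the palmitic acid that worms eat or make into the monounsaturated and long polyunsaturated fatty acids of membranes, stored fat and signalling lipids. *C. elegans* is known for making its polyunsaturated fatty acids itself. The intestine is its main site of fat synthesis and storage. *elo-1* and *elo-2* encode elongases of palmitic acid and of polyunsaturated fatty acids, and *elo-5* and *elo-6* encode elongases needed for monomethyl branched-chain fatty acids. *fat-5* encodes a desaturase that acts on palmitic acid, and *fat-6* and *fat-7* encode closely related desaturases that turn stearic acid into oleic acid. *fat-2* encodes the enzyme that turns oleic acid into linoleic acid. *fat-3* and *fat-1* encode later desaturases of the polyunsaturated series, *fat-1* for the enzyme that adds a double bond near the methyl end of the chain.

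On the WBcel235 assembly 8 of the 10 genes lie on chromosome IV and 2 on chromosome V. The elongase genes are at IV:9526366-9528336 on the plus strand (*elo-1*, WBGene00001239), IV:17466062-17467408 on the minus strand (*elo-2*, WBGene00001240), IV:5374616-5377117 on the minus strand (*elo-5*, WBGene00001243) and IV:5386629-5388559 on the minus strand (*elo-6*, WBGene00001244). *elo-5* and *elo-6* are thus near neighbours. *fat-1* (WBGene00001393, IV:13315644-13318811) and *fat-2* (WBGene00001394, IV:13323873-13326395) are also close to each other, both on the plus strand. *fat-3* (WBGene00001395) is at IV:9803023-9806119 on the plus strand and *fat-6* (WBGene00001398) at IV:11913692-11915687 on the minus strand. *fat-5* (WBGene00001397) is at V:17725004-17726818 on the plus strand and *fat-7* (WBGene00001399) at V:7151353-7153146 on the minus strand. *elo-5* overlaps the protein-coding gene *F41H10.3* on the other strand, which had up to 5270 counts in a library. *fat-5* overlaps *twk-42* and a non-coding RNA gene on the other strand, none of them above 351 counts. The strand setting of the counting is not given in the sources used here, so the levels of *elo-5* and *fat-5* are uncertain to that extent. *fat-6* and *fat-7* are similar in sequence, and how reads were divided between them is uncertain.

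Total counts ran from 27.7 to 60.8 M per library (median 37.3 M), and ribosomal RNA genes took 3.19% to 24.3% of them. F3 recovery replicate 3 and F3 control replicate 3 had 18240 and 19610 genes with a count, against at least 20503 in each other library, which is called low complexity below. No member was at 0 in any library. The lowest member count was 332, for *fat-5*. All 10 passed the filter on low counts, with 17627 genes kept in all. Levels are CPM, each count as a share of its library's total after scaling by the TMM factors of edgeR. A gene is called where the quasi-likelihood test of edgeR, run on all genes kept, gave a Benjamini-Hochberg adjusted p under 0.05. For calls by DESeq2 or by alternative fits, the share of all genes called is not given unless stated. Such calls cannot be read as particular to the members.

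Per kilobase of exon, the mean level over the 11 groups was highest for *elo-1*, at 399.6 CPM per kb, followed by *elo-6* at 348, *fat-2* at 335 and *fat-1* at 291 CPM per kb. *fat-6* was at 197, *elo-5* at 179.6 and *elo-2* at 135 CPM per kb. *fat-7* at 66.8, *fat-3* at 59.4 and *fat-5* at 19.6 CPM per kb were the lowest. The genes also differed in how far their level moved across groups. The highest group mean was 4.68 times the lowest for *elo-6*, 4.21 times for *elo-2*, 4.09 times for *fat-5* and 3.21 times for *elo-5*. It was 1.32 times for *fat-1*, 1.51 for *fat-2*, 1.57 for *elo-1*, 1.69 for *fat-3*, 1.71 for *fat-6* and 2.03 for *fat-7*. Of the variance of log2 CPM, 55.3% (*fat-6*) to 83.5% (*fat-7*) lay between generations and 6.16% (*fat-3*) to 29.6% (*fat-6*) between treatments within a generation. The generation in which worms were sampled thus held more of each gene's variance than the treatment did.

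*elo-2* had the largest log2 difference of the 4 elongase genes between exposed and control worms in F1, F2 and F3, and *elo-6* in F0. In F0 it was at 102, 134 and 150.4 CPM in controls and 169.9, 184 and 187 CPM in exposed worms. In F1 it was at 60.5, 46.2 and 46.6 CPM in controls, 96.5, 131 and 89.6 CPM in exposed and 63.4, 51.1 and 49 CPM in recovery worms. In both generations every exposed library lay above every control library, and in F1 above every recovery library too. In F2 the values were 147, 147 and 125 CPM in controls, 209.7, 188 and 219.9 CPM in exposed and 212, 186 and 248 CPM in recovery worms. In F3 they were 82.7, 159 and 87.7 CPM in controls, 170.5, 197 and 192 CPM in exposed and 179, 141 and 184 CPM in recovery worms. Exposed libraries again lay above all controls, and the F2 recovery libraries did so as well. F3 control replicate 2 stood well above the other F3 controls and above F3 recovery replicate 2.

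*elo-5* and *elo-6* followed *elo-2* across the libraries. *elo-5* in F0 was at 111, 142 and 168 CPM in controls and 187, 193 and 195 CPM in exposed worms. In F1 it was at 87.2, 70.7 and 72.8 CPM in controls, 114, 126 and 105 CPM in exposed and 77.3, 75.9 and 82.8 CPM in recovery worms. The exposed libraries were the highest in both generations. In F2 it was at 169, 162 and 156 CPM in controls, 199.7, 185 and 207 CPM in exposed and 202, 174 and 237 CPM in recovery worms, and in F3 at 122, 229 and 148, at 212, 257 and 255, and at 266, 196 and 279 CPM. In F2 the control libraries were the lowest, and in F3 the groups overlapped through control replicate 2.

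*elo-6* was at 181, 258 and 330.2 CPM in F0 controls and 348, 407 and 378 CPM in F0 exposed worms. In F1 it was at 137, 96.7 and 101 CPM in controls, 167, 223 and 143 CPM in exposed and 119.2, 93.2 and 107 CPM in recovery worms. Exposed libraries lay above the others in both generations. The F2 values were 409, 309 and 341 CPM in controls, 444, 431 and 442 CPM in exposed and 446, 354 and 495 CPM in recovery worms, and the F3 values 222, 456 and 278, then 425, 552 and 514, then 508, 386 and 536 CPM. In F3 the control and exposed groups overlapped, again through control replicate 2. *elo-1* moved less: its libraries ran from 316 to 559 CPM, with a median of 433 CPM. Its lowest group was F1 recovery, at 331, 321 and 316 CPM, below every library of the other groups, and its highest was F2 recovery at 484, 478 and 559 CPM.

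**Figure D1:**
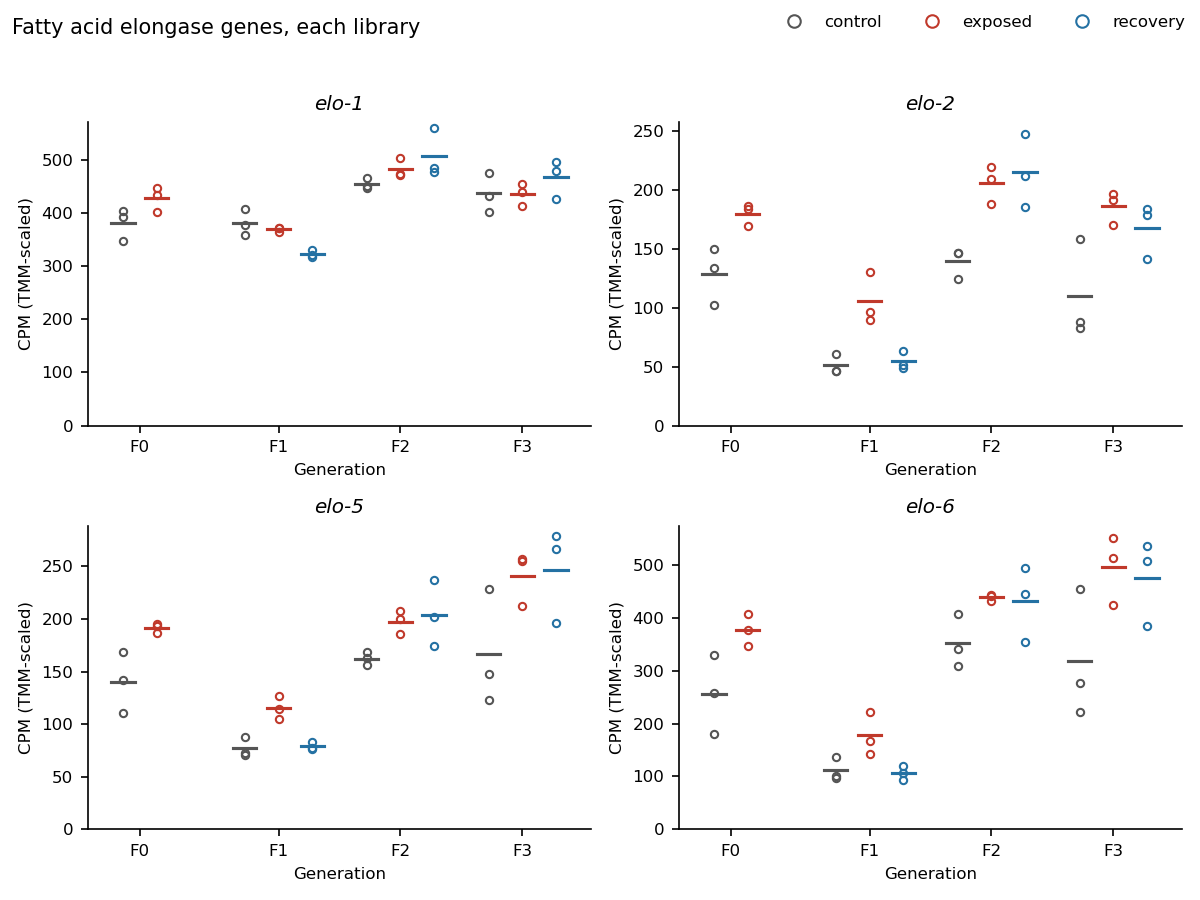
Level of the 4 elongase genes in each library (circles, TMM-scaled CPM on a linear axis from 0) by generation, with the group mean as a line, for control, exposed and recovery worms. *elo-2*, *elo-5* and *elo-6* are lowest in F1, where exposed libraries lie above control and recovery libraries, while *elo-1* stays between 316 and 559 CPM.

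In the order of group means, *elo-2* ran from F2 recovery (215 ± 31.1 CPM, mean ± SD, n = 3) and F2 exposed (206 ± 16.1) to F1 recovery (54.5 ± 7.79) and F1 control (51.1 ± 8.14 CPM). *elo-6* ran from F3 exposed (497 ± 65.2 CPM) to F1 recovery (106 ± 13 CPM) and *elo-5* from F3 recovery (247 ± 44.7 CPM) to F1 control (76.9 ± 8.99 CPM). For each of these 3 genes, F1 exposed stood ninth of the 11 groups, above F1 control and F1 recovery without overlap. This was the only pair of neighbours in their orders whose libraries did not overlap, and the other 9 pairs did.

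Among the desaturases, *fat-5* had the lowest level and moved the most. It was at 19.2, 21.1 and 18.9 CPM in F0 controls and 9.22, 13.8 and 14.4 CPM in F0 exposed worms. In F1 it was at 15.9, 24.7 and 15.4 CPM in controls, 12, 8.11 and 10.7 CPM in exposed and 11.3, 11.4 and 12.4 CPM in recovery worms. In both generations every control library lay above every irradiated or recovery library. In F2 the values were 26.8, 18.5 and 16.7 CPM in controls, 14.8, 17.5 and 17.9 CPM in exposed and 17.1, 15.6 and 17 CPM in recovery worms. In F3 they were 30.8, 43.8 and 29.2, then 36.1, 43.2 and 46.7, then 30.5, 30.7 and 42 CPM. The groups overlapped in F2 and F3. The 3 F3 groups were higher than all others, with no overlap between F3 recovery and the next group, F2 control.

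*fat-6* was at 234, 253 and 266 CPM in F0 controls and 289, 281 and 271 CPM in F0 exposed worms. In F3 it was at 269, 296 and 283 CPM in controls, 258, 176 and 190.4 CPM in exposed and 235.3, 272 and 253 CPM in recovery worms. Exposed libraries lay above controls in F0 and below them in F3, where exposed replicate 1 was closer to the controls than the other exposed libraries. In F1 the values were 204, 201 and 189 CPM in controls, 195, 221 and 188 CPM in exposed and 168, 159 and 169 CPM in recovery worms. F2 gave 245, 235.4 and 255 CPM in controls, 233, 223 and 231 CPM in exposed and 210, 195 and 226 CPM in recovery worms. F1 recovery was the lowest of the 11 groups, below its neighbour without overlap.

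*fat-7* was at 89.8, 103 and 102 CPM in F0 controls and 109.6, 106 and 109.6 CPM in F0 exposed worms. In F1 it was at 86.8, 77.9 and 77.2 CPM in controls, 81, 66.9 and 74.8 CPM in exposed and 66.6, 68.5 and 59.7 CPM in recovery worms. F0 exposed was the highest group and F0 control the next, neither overlapping its neighbour. In F2 all libraries were between 49 and 62.4 CPM. In F3 it was at 75.3, 81.6 and 84.1 CPM in controls, 86.1, 84 and 85.6 CPM in exposed and 67.7, 70.1 and 65.5 CPM in recovery worms. The recovery libraries lay below all controls in F1 and F3, and below all exposed libraries in F3.

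*fat-1*, *fat-2* and *fat-3*, of the polyunsaturated series, were higher in F0 and F1 than in F2 and F3. *fat-1* ran from 475 ± 20.3 CPM in F0 exposed to 359 ± 21.5 CPM in F3 exposed worms (n = 3 each). *fat-2* ran from 528 ± 45.4 to 349.9 ± 11.5 CPM in the same groups. *fat-3* ran from 113 ± 2.65 CPM in F1 control to 66.8 ± 7.39 CPM in F3 recovery worms. For *fat-3* the lowest F0 or F1 group, F0 control at 98.7, 98.2 and 96.3 CPM, did not overlap the next, F2 exposed at 89.3, 72.7 and 77.6 CPM. For *fat-2* the break came between F0 control and F1 exposed, and for *fat-1* between F2 recovery and F3 recovery.

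**Figure D2:**
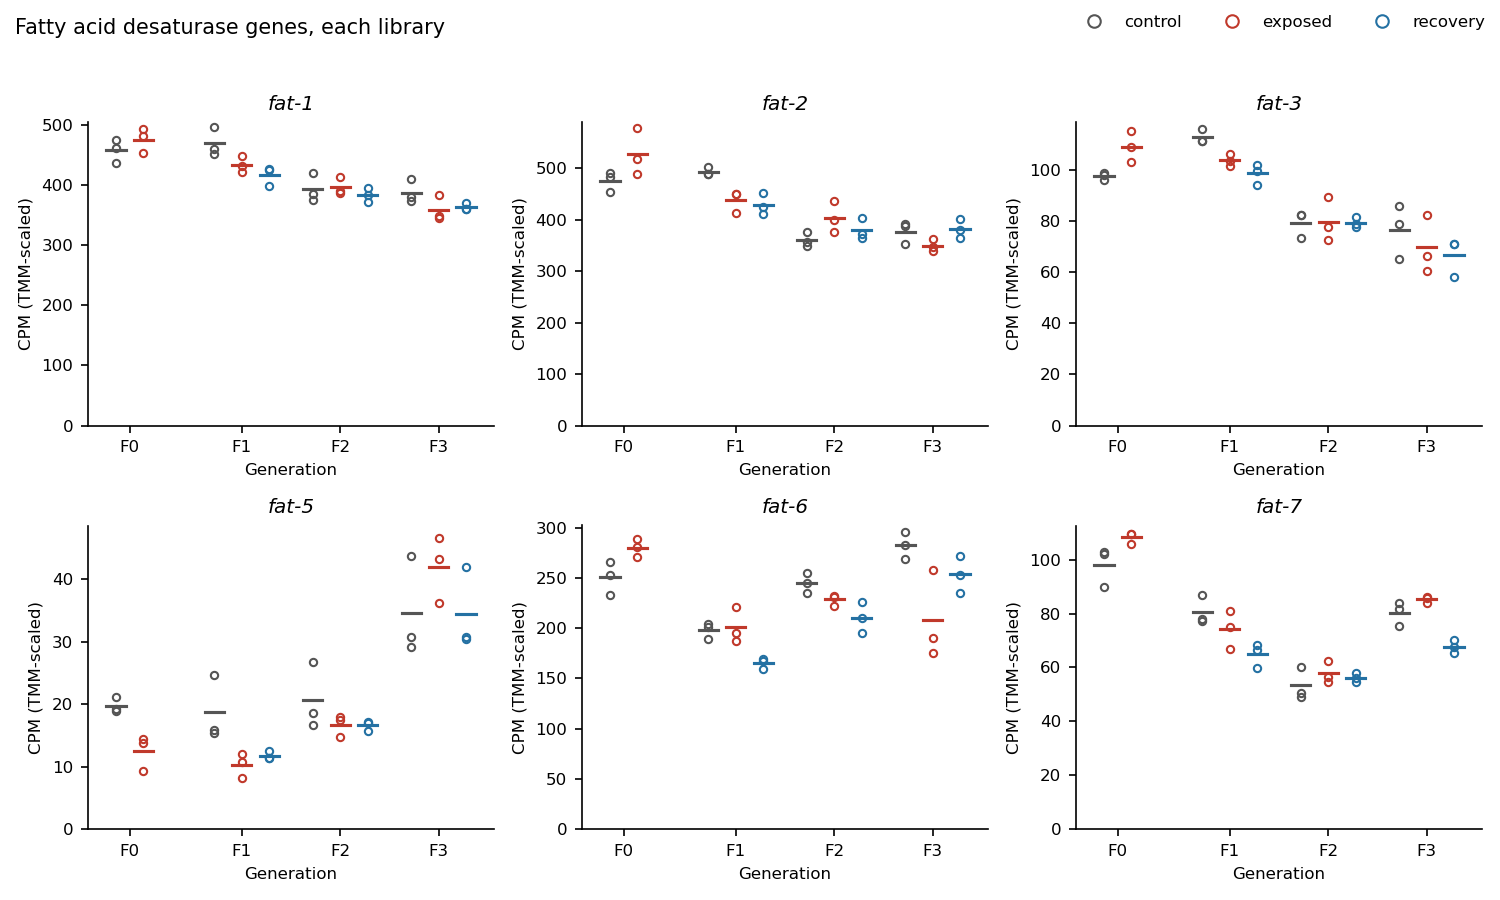
Level of the 6 desaturase genes in each library (circles, TMM-scaled CPM on a linear axis from 0) by generation, with the group mean as a line, for control, exposed and recovery worms. *fat-5* is lower in exposed than in control libraries in F0 and F1 and highest in F3, *fat-6* is lower in exposed than in control libraries in F3, and *fat-1*, *fat-2* and *fat-3* are lower in F2 and F3 than in F0 and F1.

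The first question was whether the genes differed between exposed and control worms of a generation. In F0 none of the 10 was called by edgeR, against 1.36% of all genes tested. At an unadjusted p under 0.05 there were 6 members, against 2859 of the 17627 genes tested, and DESeq2 called 1 member, *fat-5*, lower. The log2 fold changes were 0.48 for *elo-2*, 0.45 for *elo-5*, 0.56 for *elo-6* and −0.67 for *fat-5* (SE 0.19, 0.17, 0.23 and 0.20; edgeR adjusted p = 0.22, 0.19, 0.23 and 0.094). For each of these 4 genes, and for *fat-3*, *fat-6* and *fat-7*, the libraries of the groups did not overlap. The share of all genes without overlap was not counted, and the differences did not pass the adjustment over all genes.

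In F1, 2 of the 10 genes were called, against 1.47% of all genes. *elo-2* rose 2.07-fold, from 51.1 ± 8.14 to 106 ± 22 CPM (a log2 fold change of 1.05 with SE 0.20, edgeR adjusted p = 0.0052). *fat-5* fell 1.81-fold, from 18.7 ± 5.25 to 10.3 ± 1.96 CPM (a log2 fold change of −0.86 with SE 0.20, edgeR adjusted p = 0.024). *elo-5* differed by 0.58 and *elo-6* by 0.67 on the log2 scale without being called (edgeR adjusted p = 0.097 and 0.18). DESeq2 and an edgeR fit of the groups compared alone did call *elo-5* (adjusted p = 0.028 and 0.0084). The call of *elo-2* was lost without exposed replicate 2 or control replicate 2 (edgeR adjusted p up to 0.057). That of *fat-5* was lost without exposed replicate 2 or 3 or control replicate 2, with no filter and with a cuticle collagen score as a covariate (edgeR adjusted p up to 0.22).

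In F2 none of the members was called by edgeR, against 9% of all genes. At an unadjusted p under 0.05 there were 2, against 4302 of the 17627 genes tested. DESeq2 called 2 members, *elo-2* and *fat-2*, both higher. The log2 fold change of *elo-2* was 0.56 (SE 0.19, edgeR adjusted p = 0.069), with 206 ± 16.1 CPM in exposed and 139 ± 12.7 CPM in control worms. That of *fat-2* was 0.16 (SE 0.07, edgeR adjusted p = 0.13).

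In F3, 2 of the 10 were called, against 5.24% of all genes. *elo-2* rose 1.70-fold, from 109.7 ± 42.5 to 186 ± 14 CPM (a log2 fold change of 0.76 with SE 0.20, edgeR adjusted p = 0.023). *fat-6* fell 1.36-fold, from 282 ± 13.5 to 208 ± 44.1 CPM (a log2 fold change of −0.44 with SE 0.09, edgeR adjusted p = 0.0048). *elo-5* at 0.54 and *elo-6* at 0.64 were not called (edgeR adjusted p = 0.062 and 0.098). DESeq2 called both (adjusted p = 0.030 and 0.043), and edgeR called *elo-5* with the cuticle score or the ribosomal RNA share as a covariate (adjusted p = 0.038 and 0.040). Both were also called without F3 control replicate 2, the library that stood high, at 0.84 and 0.99 (edgeR adjusted p = 0.0013 and 0.0083). The call of *elo-2* was lost without exposed replicate 2 or 3, without control replicate 1 or 3, without both low-complexity libraries and in a fit of the 6 F3 libraries alone (edgeR adjusted p of 0.064 to 0.37). The fit of the 6 libraries alone, which called no gene at all, was the only alternative that ended the call of *fat-6* (edgeR adjusted p = 0.34).

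**Figure D3:**
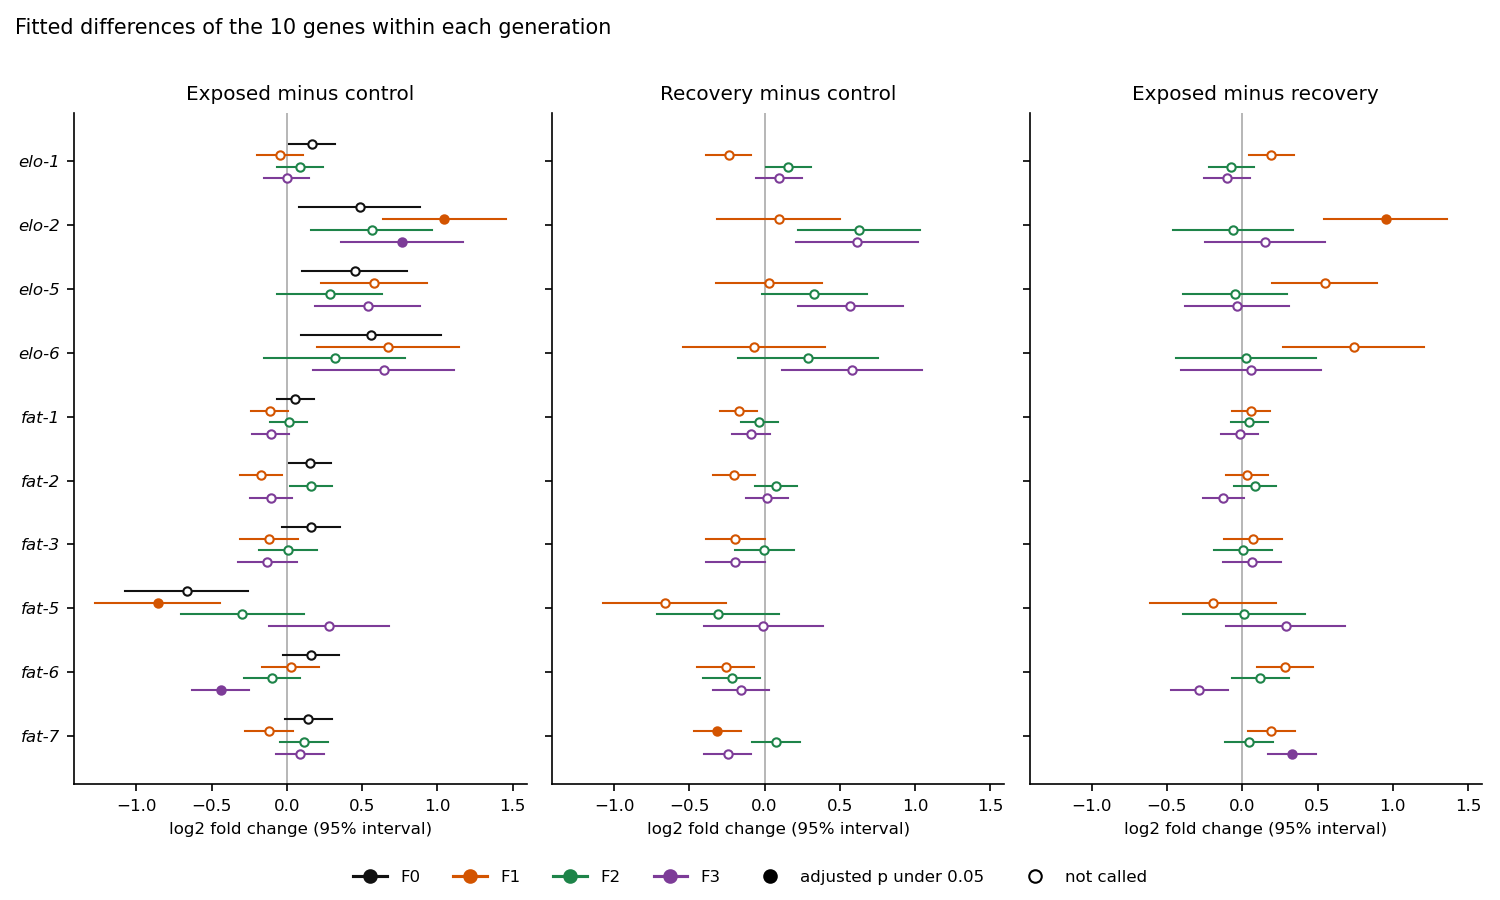
Fitted log2 fold change of each of the 10 genes (circle, with its 95% interval as a line) in each generation, for exposed minus control, recovery minus control and exposed minus recovery worms. Filled circles passed an edgeR adjusted p of 0.05: in the first panel *elo-2* in F1 and F3, *fat-5* in F1 and *fat-6* in F3, in the second *fat-7* in F1, and in the third *elo-2* in F1 and *fat-7* in F3.

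Averaged over the 4 generations, 4 of the 10 genes were called between exposed and control worms, against 8.29% of all genes. These were 3 rises, all of elongase genes (5.53% of all genes rose), and 1 fall (2.77% of all genes fell). *elo-5* rose 1.38-fold (a log2 fold change of 0.46 with SE 0.08, edgeR adjusted p = 0.0008) and *elo-6* 1.46-fold (a log2 fold change of 0.55 with SE 0.11, edgeR adjusted p = 0.0029). For *elo-2* the average was 0.71 (SE 0.10, edgeR adjusted p = 3e-05). *fat-5* fell 1.31-fold (a log2 fold change of −0.39 with SE 0.10, edgeR adjusted p = 0.013). Its F3 value pointed the other way, at 0.28, with a 95% interval of −0.12 to 0.68. These 4 calls were kept in each of the 32 alternatives run, including each library left out in turn. Averages of *elo-1*, *fat-1*, *fat-2*, *fat-3*, *fat-6* and *fat-7* lay between −0.09 and 0.06. The median over the 10 genes was 0.03, and over all genes tested −0.01.

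Whether these differences changed between generations was tested as the difference of exposed against control in F1, F2 or F3 from that in F0. *fat-6* was the 1 member called, in F3, where 0.221% of all genes were called. Its difference was 0.16 in F0 and −0.44 in F3, a change of −0.60 (SE 0.13, edgeR adjusted p = 0.043). This call was lost in 13 of 20 alternatives, among them without any 1 of the 6 F0 libraries. Over these alternatives its edgeR adjusted p ran from 0.00013 to 0.38. For *fat-5* the change from F0 to F3 was 0.94 (SE 0.28, edgeR adjusted p = 0.15). No member was called by edgeR for F1 or F2, where 0.0567% and 3.04% of all genes were. At an unadjusted p under 0.05 there were 3 and 0 members, against 2505 and 3480 of the 17627 genes tested. DESeq2 called 0 members in both. For *elo-2* the changes from F0 were 0.56, 0.08 and 0.28, with intervals that all held 0.

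The second question was whether the genes differed in unirradiated descendants of irradiated worms. Recovery and exposed worms were compared with the same controls, so their differences are not independent. In F1 recovery worms 1 member was called, against 2.81% of all genes: *fat-7* fell 1.24-fold, from 80.6 ± 5.32 to 64.9 ± 4.63 CPM (a log2 fold change of −0.31 with SE 0.08, edgeR adjusted p = 0.022). This call was lost without recovery replicate 1 or 3 or control replicate 1 (edgeR adjusted p up to 0.19). *fat-5* differed by −0.67 (SE 0.20, edgeR adjusted p = 0.071), beside its −0.86 in F1 exposed worms. DESeq2 called *elo-1* and *fat-5* lower (adjusted p = 0.0415 and 0.022). An edgeR fit of the groups compared alone called *fat-5* and *fat-6* lower (adjusted p = 0.0497 and 0.024). *elo-2*, at 54.5 ± 7.79 against 51.1 ± 8.14 CPM, differed by 0.09, with a 95% interval of −0.31 to 0.50.

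In F2 and F3 recovery worms no member was called by edgeR, against 3.05% and 1.58% of all genes. Unadjusted p under 0.05 was reached by 3 members in F2 and 5 in F3, against 3556 and 2788 of the 17627 genes tested. DESeq2 called 1 and 2 members, all higher. *elo-2* differed by 0.63 in F2 and 0.61 in F3 (SE 0.19 and 0.20, edgeR adjusted p = 0.072 and 0.11), beside 0.56 and 0.76 in exposed worms of those generations. *elo-5* and *elo-6* differed by 0.57 and 0.58 in F3 (edgeR adjusted p = 0.082 and 0.20). Without F3 control replicate 2 all 3 elongase genes were called in F3 recovery worms, at 0.97, 0.86 and 0.92 (edgeR adjusted p = 0.0024, 0.0024 and 0.017).

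Averaged over F1, F2 and F3, recovery worms differed from controls in 3 members, against 2.89% of all genes. *elo-2* rose 1.36-fold (log2 fold change 0.44, SE 0.11), *fat-6* fell 1.16-fold (−0.21, SE 0.05) and *fat-7* fell 1.12-fold (−0.16, SE 0.04; edgeR adjusted p = 0.036, 0.030 and 0.046). They kept these calls in 9, 12 and 5 of 26 alternatives, and *fat-7* lost its call with a replicate block or with DESeq2's size factors (edgeR adjusted p = 0.055 and 0.062). DESeq2 also called *elo-5* (adjusted p = 0.021). None was called with the cuticle score or the ribosomal RNA share as a covariate or without the low-complexity libraries, and 6 members were called without F3 control replicate 2. The shares of all genes called in these fits are not given here, so these counts cannot be read as particular to the members.

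Exposed and recovery worms of 1 generation differed in whether they were themselves irradiated. In F2 and F3 they also differed in whether their ancestors after F0 had been irradiated. In F1, *elo-2* was the 1 member called, against 1.45% of all genes: it was 1.94-fold higher in exposed worms, 106 ± 22 against 54.5 ± 7.79 CPM (a log2 fold change of 0.95 with SE 0.20, edgeR adjusted p = 0.014). The call was lost without exposed replicate 2 or recovery replicate 2 or 3 (edgeR adjusted p up to 0.15). *elo-5* was at 0.55 and *elo-6* at 0.74 (edgeR adjusted p = 0.11 for both). DESeq2 called both (adjusted p = 0.035 and 0.021). An edgeR fit of the groups compared alone called *elo-1*, *elo-5* and *fat-6*, all higher (adjusted p = 0.047, 0.0035 and 0.030). In F2 no member was called by edgeR or DESeq2, with 0.00567% of all genes called by edgeR. None had an unadjusted p under 0.05, against 1150 of the 17627 genes tested. The difference of *elo-2* was −0.06 in F2, with a 95% interval of −0.46 to 0.34, and 0.15 in F3, with an interval of −0.25 to 0.55.

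The change in that difference was tested after its values had been seen. For *elo-2* exposed against recovery was 1.02 lower in F2 than in F1 on the log2 scale (a change of −1.02, SE 0.28, edgeR adjusted p = 0.11) and 0.80 lower in F3 than in F1 (−0.80, SE 0.28, edgeR adjusted p = 0.20). edgeR called no member in either test, where 0.488% and 0% of all genes were called. At an unadjusted p under 0.05 there were 4 and 5 members, against 2090 and 2449 of the 17627 genes tested. DESeq2 called 1 member each time, *elo-2* in the first and *fat-6* in the second.

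In F3 *fat-7* was the 1 member called between exposed and recovery worms, against 1.68% of all genes. It was 1.26-fold higher in exposed worms, 85.2 ± 1.06 against 67.8 ± 2.3 CPM (a log2 fold change of 0.33 with SE 0.08, edgeR adjusted p = 0.040), and the call was lost in 7 of 14 alternatives (edgeR adjusted p up to 0.37). These were the fits without exposed replicate 1 or 3 or recovery replicate 1 or 3, without both low-complexity libraries, with the cuticle score and of the groups compared alone. Averaged over F1 to F3, *fat-7* was again the 1 member called, 1.14-fold higher in exposed worms, against 1.4% of all genes (a log2 fold change of 0.19 with SE 0.04, edgeR adjusted p = 0.033). It kept that call in 16 of 26 alternatives.

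The genes also differed between control worms of successive generations, which were never irradiated. Generation and time of culture cannot be told apart here. In F1 controls 5 members were lower than in F0 controls and none higher, against 19.8% of all genes called in either direction and 9.21% called lower. *elo-2* fell 2.52-fold, from 129 ± 24.5 to 51.1 ± 8.14 CPM, *elo-6* 2.29-fold, from 256 ± 74.6 to 112 ± 21.9 CPM, and *elo-5* 1.82-fold, from 140.5 ± 28.8 to 76.9 ± 8.99 CPM (edgeR adjusted p = 3e-05, 0.0006 and 0.00072). *fat-6* fell 1.27-fold and *fat-7* 1.217-fold (edgeR adjusted p = 0.0093 and 0.010). With the cuticle score as a covariate *fat-6* was the 1 gene of these still called. That score was 2.58 to 2.71 in F0 and 3.84 to 3.99 in F1 controls, so score and generation cannot be told apart well here. With it *elo-2* was at −1.22, *elo-6* at −0.75, *elo-5* at −0.48 and *fat-7* at −0.41 on the log2 scale. Without it they were at −1.33, −1.20, −0.87 and −0.28. *fat-7* also lost its call without F0 control replicate 2 or F1 control replicate 2 or 3 (edgeR adjusted p up to 0.082).

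From F1 to F2 controls 9 of the 10 genes were called, 5 higher and 4 lower, against 23.5% of all genes, 12.8% higher and 10.6% lower. The 4 elongase genes rose: *elo-6* 3.16-fold to 353 ± 50.8 CPM, *elo-2* 2.72-fold to 139 ± 12.7 CPM, *elo-5* 2.11-fold to 162 ± 6.48 CPM and *elo-1* 1.19-fold to 454 ± 10.4 CPM (edgeR adjusted p = 1.2e-05, 9.6e-06, 4.8e-05 and 0.012). *fat-6* rose 1.24-fold (edgeR adjusted p = 0.014). The other called desaturase genes fell: *fat-7* 1.51-fold, *fat-3* 1.42-fold, *fat-2* 1.37-fold and *fat-1* 1.19-fold (edgeR adjusted p = 1.8e-06, 0.00021, 1.4e-05 and 0.0024). The rises of *elo-1* and *fat-6* were lost in 4 and 5 of 13 alternatives, among them without F1 control replicate 2 or 3 or F2 control replicate 3, and for *fat-6* also without F2 control replicate 1. The other 7 calls were kept in all 13. From F2 to F3 controls 2 genes were called, both higher, against 29.2% of all genes in either direction and 12.9% higher: *fat-5* rose 1.68-fold, from 20.7 ± 5.38 to 34.6 ± 7.98 CPM, and *fat-7* 1.51-fold, from 53.3 ± 6.13 to 80.3 ± 4.49 CPM (edgeR adjusted p = 0.0057 and 1.1e-05). The rise of *fat-5* was not called without F3 control replicate 2 (edgeR adjusted p = 0.059), with the cuticle score (edgeR adjusted p = 0.30) or in the fit of the groups compared alone (edgeR adjusted p = 0.088). Without F3 control replicate 2, *elo-2* was called lower in F3 than in F2 controls (−0.70, edgeR adjusted p = 0.0077).

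Across the 33 libraries *elo-2*, *elo-5* and *elo-6* moved together. The Pearson correlation of log2 CPM was 0.985 for *elo-5* and *elo-6*, 0.95 for *elo-2* and *elo-6* and 0.938 for *elo-2* and *elo-5*. Taken as deviations from the group means, so that generation and treatment did not enter, these were 0.928, 0.918 and 0.904. The 3 genes thus moved together among replicates as well as among groups. *elo-1* also went with *elo-2*, *elo-5* and *elo-6*, at 0.813, 0.834 and 0.86 across libraries and 0.733, 0.82 and 0.722 within groups. *fat-1* and *fat-3* had a correlation of 0.902 across libraries and 0.532 within groups, and *fat-1* and *fat-2* of 0.87 and 0.182. *fat-3* went against *fat-5* (−0.758, and −0.604 within groups) and against *elo-5* (−0.723 and −0.53). *fat-6* and *fat-7*, which act on the same substrate, had a correlation of 0.302 and 0.0274. These are descriptions over libraries that share depth and, within a group, worms of 1 generation and treatment.

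**Figure D4:**
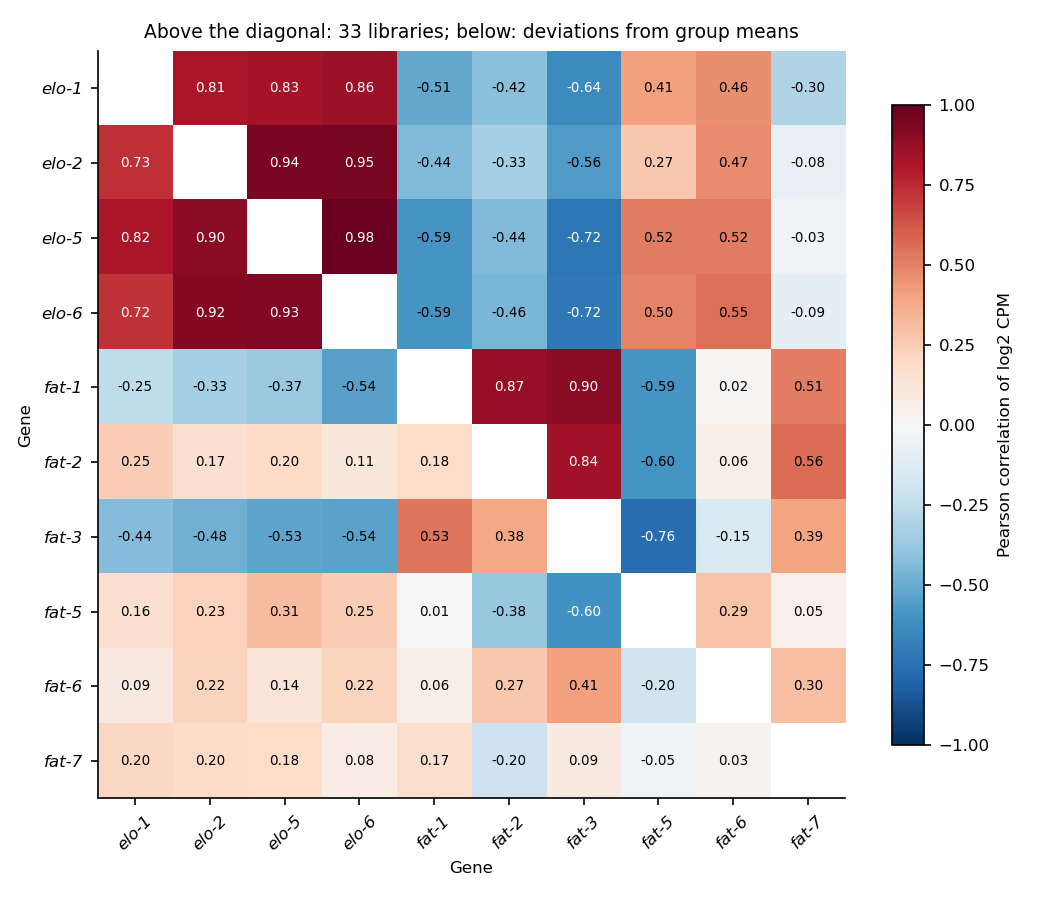
Pearson correlation of log2 CPM between the 10 genes, over the 33 libraries above the diagonal and over their deviations from group means below it, on a colour scale from −1 to 1. *elo-2*, *elo-5* and *elo-6* stand at 0.904 or more on both sides, while the block of *fat-1*, *fat-2* and *fat-3* above the diagonal weakens below it.

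Markers of the intestine, the tissue known for fat synthesis, were present: none of 9 was at 0 counts over all libraries together. Markers at 0 counts in the other lists below were counted in the same way, not library by library. Their summed level was 831.9 to 892.6 CPM in F0 controls and 850.1 to 893.1 CPM in F0 exposed worms. In F1 it was 809.8 to 893.3 in controls, 853.7 to 920.5 in exposed and 765.1 to 783.9 CPM in recovery worms. Their mean log2 CPM was higher in exposed than in control worms by less than the differences of *elo-2*, at 5.85 against 5.73 in F0, 5.82 against 5.75 in F1 and 5.77 against 5.64 in F3, and it was 5.96 against 5.97 in F2. By library this mean was 5.82 to 5.89 in F0 exposed worms, above 5.69 to 5.81 in F0 controls. Exposed and control libraries overlapped in F1, F2 and F3. F1 recovery libraries, at 5.61 to 5.62, lay below F1 controls, at 5.64 to 5.805. F3 recovery libraries, at 5.724 to 5.786, lay just above F3 controls, at 5.561 to 5.723. The F1 recovery libraries, where *elo-1*, *elo-6* and *fat-6* had their lowest group means, had the lowest intestinal mean, 5.62. *fat-1*, *fat-2* and *fat-3* had rank 5, 5 and 4 of the 11 groups there. *fat-7* was lowest in the F2 groups, at 53.3 to 57.7 CPM, where the intestinal mean was highest, at 5.96 to 5.97. The part of these markers in the results was not tested. In whole worms, fewer cells of a type and less RNA per cell cannot be told apart.

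Markers of hypodermis and cuticle, 9 genes with none at 0 counts, moved with the generation. Their mean log2 CPM was 3.19, 5.18, 5.40 and 3.65 in F0, F1, F2 and F3 controls, and their summed level 1196 to 1220.0, 924 to 1235, 854 to 1547 and 566 to 970.2 CPM. Within F0 the mean was 2.41 to 3.005 in exposed libraries, below 3.05 to 3.41 in controls, and in F1 the ranges overlapped. Within F2 the mean was 4.69 in exposed and 4.33 in recovery worms against 5.40 in controls. There 3 and 6 of the 9 genes were called lower, against 6.2% and 2.81% of all genes. Within F3 the mean went the other way, at 4.39 in exposed and 3.83 in recovery worms against 3.65 in controls. In F3 exposed worms 2 of the 9 were called higher, against 2.87% of all genes. A score over 134 collagen genes ran from 2.44 to 2.75 in F0, 3.72 to 4.42 in F1, 3.39 to 4.65 in F2 and 2.70 to 3.89 in F3 libraries. With that score as a covariate the average difference between exposed and control worms was still called for *elo-2*, *elo-5*, *elo-6* and *fat-5*. Calls lost with it were those of both recovery averages, *fat-5* in F1 exposed against control and *fat-7* in F3 exposed against recovery. Between controls, *elo-2*, *elo-5*, *elo-6* and *fat-7* in F1 against F0 and *fat-5* in F3 against F2 also lost their calls. In both control comparisons the score did not overlap between the groups, so score and generation cannot be told apart well there. The part of the cuticle genes in the results was not tested beyond this covariate. Yolk genes, 6 with none at 0 counts, were higher in exposed than in control libraries without overlap in F1 and F2. In F1 their mean log2 CPM was 11.43 to 11.50 in exposed libraries, above 11.19 to 11.34 in controls and 11.07 to 11.14 in recovery libraries, and their summed level was 22420.0 to 23990.0, 20350.0 to 23070.0 and 17910.0 to 19360.0 CPM. In F2 it was 11.60 to 11.86 in exposed and 11.59 to 11.73 in recovery libraries, above 11.30 to 11.56 in controls. Of the 6 genes, 1 was called higher in F1 exposed against control, and 2 each in F1 exposed against recovery and in F2 exposed and F2 recovery against control. The shares of all genes called higher in these comparisons were 0.942%, 0.919%, 2.81% and 0.238%, in that order. In F0 and F3 the ranges of exposed and control libraries overlapped, and between controls the yolk mean was 11.89, 11.27, 11.46 and 11.27 in F0 to F3.

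Body muscle genes, 5 with none at 0 counts, were highest in exposed worms in F1 and F3. Their mean log2 CPM was 8.50 to 8.74 in F1 exposed libraries against 8.13 to 8.41 in controls and 8.18 to 8.23 in recovery libraries, and 8.49 to 8.54 in F3 exposed libraries against 8.09 to 8.41 and 8.04 to 8.30. Exposed and control libraries overlapped in F0 and F2, and none of the 5 genes was called by edgeR in exposed against control. Sperm genes, 8 with none at 0 counts, were at 2.91, 3.19, 3.16 and 2.73 in the F0 to F3 controls. In F2 exposed worms they were at 2.53, and 5 were called lower, against 6.2% of all genes. Oocyte genes (8) were at 8.34 to 8.77 in F0 exposed against 8.85 to 9.01 in control libraries. Neuron genes (5) were at 4.84 to 4.89 in F1 exposed against 4.68 to 4.785 in control libraries. Germline genes (8) were at 7.595 to 7.70 in F2 exposed against 7.45 to 7.54 in control libraries. In the other generations exposed and control libraries of the oocyte, neuron and germline lists overlapped. Sperm genes were also lower in F1 exposed libraries, at 2.85 to 2.95, than in F1 controls, at 3.16 to 3.215. Their exposed and control libraries overlapped in F0 and F3. The part of the yolk, muscle, sperm, oocyte, neuron and germline genes in the results was not tested.

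**Figure D5:**
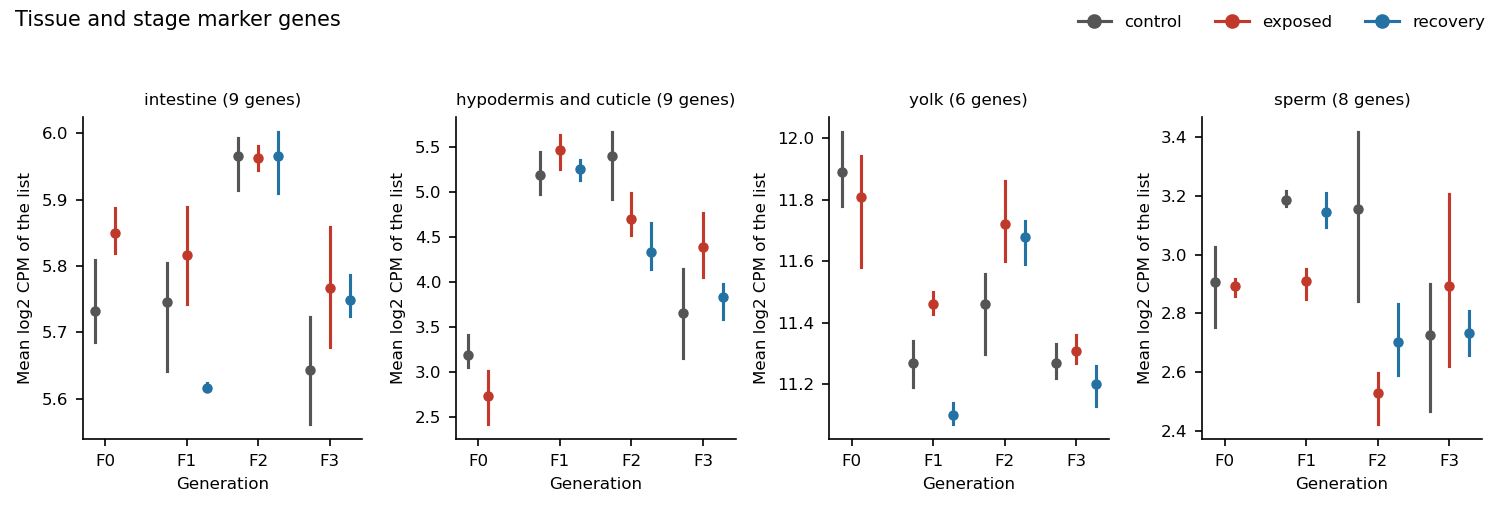
Mean log2 CPM of intestine, hypodermis and cuticle, yolk and sperm marker genes in each group (circle for the mean of 3 libraries, line from the lowest to the highest library) by generation and treatment. The hypodermis and cuticle markers rise from 3.19 in F0 controls to 5.40 in F2 controls, while group means of the intestine markers stay between 5.62 and 5.97.

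Other genes of fatty acid metabolism were taken from lists by function. In the average of exposed against control, 5.53% of all genes were called higher and 2.77% lower, and the counts of each list are to be read against these shares. Of the 5 other elongase genes, 2 rose and none fell: *elo-9* 1.40-fold (a log2 fold change of 0.48 with SE 0.07, edgeR adjusted p = 4.9e-05) and *elo-3* 1.12-fold (edgeR adjusted p = 0.037). *elo-9* was called in F1, from 8.07 ± 0.478 to 13.7 ± 2.14 CPM, and in F3, from 9.85 ± 1.82 to 15.3 ± 2.59 CPM (edgeR adjusted p = 0.0047 and 0.0095). *elo-8* fell in F2, from 6.60 ± 0.808 to 4.17 ± 0.445 CPM (−0.67, edgeR adjusted p = 0.016), where the median over the 5 genes was −0.47. The remaining desaturase gene, *fat-4*, was at 0.02 on average. Of 10 genes of fatty acid synthesis and of the elongation complex, 1 rose, the cytochrome b5 gene *cytb-5.1*, 1.15-fold (edgeR adjusted p = 0.010). The fatty acid synthase gene *fasn-1* was at 0.04 and the acetyl-CoA carboxylase gene *pod-2* at 0.08, and neither was called.

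Of 20 genes known or proposed to regulate desaturase expression, 1 rose on average and none fell, a share near that of all genes. The gene was *scp-1*, the counterpart of the mammalian SREBP cleavage-activating protein, 1.42-fold higher (a log2 fold change of 0.51 with SE 0.05, edgeR adjusted p = 5.2e-08). It was higher in each generation, for example from 70.0 ± 7.48 to 114.9 ± 7.49 CPM in F1 (edgeR adjusted p = 0.00013), and was also called in F1 and F3 recovery worms, at 0.45 and 0.51 (edgeR adjusted p = 0.0069 and 0.0071). *sbp-1*, the SREBP gene itself, was at −0.11, the nuclear receptor gene *nhr-49* at −0.01 and the Mediator subunit gene *mdt-15* at −0.01, none of them called. In F3 *nhr-80*, a nuclear receptor gene known to act on *fat-6* and *fat-7*, rose 1.34-fold and *paqr-1*, of membrane fluidity control, fell 1.219-fold (edgeR adjusted p = 0.046 and 0.0037), beside the fall of *fat-6* in those worms.

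Of 10 genes of phosphatidylcholine and methyl donor synthesis 2 rose on average: *pcyt-1*, for the rate-limiting enzyme of the choline branch, 1.35-fold and *cept-1*, for a choline phosphotransferase, 1.16-fold (edgeR adjusted p = 2.5e-06 and 0.0043). Of 13 genes of triglyceride synthesis and storage 3 rose and 2 fell. The acyltransferase genes *acl-1* and *acl-4* rose 1.24-fold and 1.12-fold and the lipase gene *lipl-1* 1.68-fold, while the lipase genes *lipl-2* and *lipl-4* fell 1.28-fold and 1.54-fold (edgeR adjusted p = 4.6e-06, 0.00039, 0.0023, 0.011 and 0.0036). Of 7 cytochrome P450 genes linked to eicosanoid synthesis, *cyp-37B1* fell 1.77-fold (edgeR adjusted p = 0.0051) and none rose.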

How the data were processed

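Whole-worm RNA was sequenced as strand-specific paired-end libraries, per the labels' protocols. The deposited values are gene counts as the authors made them, whole numbers with no normalisation. STAR and DESeq2 1.22.2 were used, per the submitters' processing notes, which give no role for either. For the build, the counter and the strand setting, nothing is given in the sources used here. Positions and symbols came from the WBcel235 annotation (Ensembl release 115), which held 46603 of 46778 identifiers. Groups came from the labels.

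Tests used edgeR 4.0.16 in R 4.3.3 (robust quasi-likelihood fit and F-test on the counts), with TMM scaling and filterByExpr on the 11 groups, in 1 fit of 33 libraries with 22 residual degrees of freedom. Adjusted p-values cover all 17627 genes kept, not the members alone. The common biological coefficient of variation was 0.119. Standard errors and 95% intervals were calculated back from the F statistic and are approximate. Log2 CPM used a prior count of 2. Levels between genes were compared per kb of exon. The precision is limited by 3 libraries per group and by depth. Alternatives were another scaling, no filter, DESeq2 1.42.0, a replicate block, fits of the groups compared, 2 covariates, and libraries left out. No replicate pair of a group agreed within sampling noise (chi-square per degree of freedom at least 8.53).

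All 10 members were named throughout. Other genes of the lists were eligible where called and without overlap between libraries, up to 3 per list and comparison by smallest p. Those named for averages were chosen after their values were seen, as all genes of a list that were called. *fasn-1*, *pod-2*, *sbp-1*, *nhr-49*, *mdt-15* and *fat-4* are given as main members of their lists. The members and lists were chosen with earlier results of these data known. No sequence was used here.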

Additional observations from a re-analysis of the deposited data

Results flagged for a closer look

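The difference between exposed and control worms changed between generations for *fat-6*, by a test of that change. It was 0.16 in F0, with 280.3 ± 8.73 CPM in exposed and 251 ± 16.5 CPM in control worms, and −0.44 in F3, with 208 ± 44.1 and 282 ± 13.5 CPM (mean ± SD, n = 3). The change was −0.60 on the log2 scale (SE 0.13, edgeR adjusted p = 0.043). All 3 exposed libraries were above the controls in F0 and all 3 below them in F3. The value ran from −0.78 to −0.49 over 20 alternatives, of which 7 kept the call. In F3 exposed worms replicate 1, at 258 CPM, had a ribosomal RNA share of 20.8%, against 6.8% and 6.03% in replicates 2 and 3, at 176 and 190.4 CPM. The part of that share in the result was not tested within the group. With the share as a covariate the F3 difference was −0.44 (edgeR adjusted p = 0.0015).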

How the results depend on the processing

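Of 3540 alternative values of single members, 58 gained a call, 121 lost one and no called value changed sign. Of 32 called member results 13 kept the call in every alternative run. The counts of members called moved by over 1.5 times as follows. With DESeq2's test they were 1, 2 and 4 in F0, F2 and F3 exposed against control, 3, 1 and 2 in F1, F2 and F3 recovery against control, 3 and 2 in F1 and F3 exposed against recovery, 2 in its average, and 1 and 1 for the change of exposed against recovery from F1 to F2 and F3. In fits of the groups compared alone they were 2 and 0 in F2 and F3 exposed against control, 3 and 1 in F1 and F2 recovery against control, 4 and 0 in F1 and F3 exposed against recovery, 1 and 2 in the recovery averages against control and exposed, 0 for the change from F0 to F3, 1 for F3 against F2 controls and 2 for the change of exposed against recovery from F1 to F2. With the cuticle score they were 1 in F1 exposed and 2 in F1 recovery against control, 0 in F3 exposed against recovery and in both recovery averages, and 1 in F1 against F0 and in F3 against F2 controls. With the ribosomal RNA share they were 2 in F1 recovery against control, 2 in F1 exposed against recovery and 0 in the recovery average. With no filter they were 1 in F1 exposed against control, 1 in the recovery average and 1 for the change of exposed against recovery from F1 to F3. DESeq2's size factors gave 1 in F2 exposed against control. Without both low-complexity libraries they were 1 in F3 exposed against control, 0 in F3 exposed against recovery, 0 in both recovery averages and 0 for the change from F0 to F3. Smaller moves were a gain of *elo-5* in F1 exposed against control (DESeq2 and groups alone, 3 members), in the recovery average (DESeq2, 4) and in F3 exposed against control (both covariates, 3), of *fat-3* in F1 against F0 controls (groups alone, 6) and of *fat-6* in F3 against F2 controls (DESeq2's test or size factors and ribosomal RNA share, 3), and losses of *fat-7* in the recovery average (DESeq2's size factors, 2) and, in F2 against F1 controls, of *elo-1* (groups alone, 8) and *fat-6* (ribosomal RNA share, 8). The share of all genes called in each fit, here and with libraries left out, is not given in this section. The counts therefore cannot be read as particular to the members, and the cause of their changes was not tested.

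With 1 library left out in turn, exposed against control gave 0 to 0, 0 to 2, 0 to 0 and 1 to 4 members in F0 to F3, and 4 to 5 on average. Recovery against control gave 0 to 2, 0 to 0 and 0 to 3, and 0 to 6 on average, the 6 without F3 control replicate 2. Exposed against recovery gave 0 to 1, 0 to 0 and 0 to 1, and 0 to 1 on average. The changes from F0 gave 0 to 0, 0 to 0 and 0 to 2, and those from F1 0 to 0 and 0 to 1. Controls gave 4 to 5, 7 to 9 and 2 to 2, the last with *elo-2* in place of *fat-5* without F3 control replicate 2.

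The replicate numbers did not pair the libraries: 6 of 39 correlations of same-numbered deviations were over 0.1 (range −0.222 to 0.333), and in 0 of 13 comparisons were all of them. With a replicate block the counts were 0, 2, 0 and 2 for exposed against control in F0 to F3, 4 on average, 2 instead of 3 for the recovery average, without *fat-7*, and 0 instead of 1 for the change from F0 to F3, where *fat-6* was at −0.60 (edgeR adjusted p = 0.059). Changing the scaling moved the median of all genes by at most 0.0436 (log2). With 3 libraries per group and depths of 27.7 to 60.8 M, small differences of *fat-5*, the member with the fewest counts, could be missed.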

Other observations

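By Pearson correlation of log2 CPM over the 33 libraries, the genes most like *elo-2* outside the members were *spin-3* (0.977), *F28H7.3* (0.967), *cln-3.3* (0.963), *dhs-20* (0.963) and *F22E5.1* (0.959). Over the 11 group means these were 0.991, 0.985, 0.981, 0.987 and 0.979. For *fat-7* they were *pqn-88* (0.893), *C34E10.10* (0.869), *mrps-14* (0.864), *rrp-1* (0.849) and *mrps-18.C* (0.845). Over the 11 group means these were 0.948, 0.946, 0.921, 0.888 and 0.913, in that order. Their ranks by group means were 1, 2, 11, 34 and 15, against 1, 3, 5, 2 and 7 for the genes like *elo-2*. The libraries share generation, treatment and depth, so these values describe likeness of pattern alone.

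In F1 recovery worms the cytochrome b5 gene *cytb-5.2* fell 1.21-fold and *hpo-8*, a dehydratase gene of the elongation complex, fell 1.17-fold against controls (edgeR adjusted p = 0.014 and 0.035), beside the low *fat-7* of these worms. *cept-2*, for a choline phosphotransferase, rose from 97.6 ± 9.15 to 143.7 ± 11.3 CPM and *pmt-1*, a phosphoethanolamine methyltransferase gene, fell 1.219-fold (edgeR adjusted p = 0.00015 and 0.037). With 1.45% of all genes called, F1 exposed worms were below F1 recovery worms in *cept-2* (−0.43, edgeR adjusted p = 0.0069) and above them in *cytb-5.1*, *hpo-8*, *skn-1*, *acl-1*, *pcyt-1* and the lipid droplet gene *plin-1*, for example 466.7 ± 10.5 against 381.7 ± 17.5 CPM for *plin-1* (edgeR adjusted p = 0.042).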
